A study of Homo sapiens with 21 samples.

Results

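A set of 10 genes that build or regulate the microtubules and growth cones of neurites was followed across a neuroblastoma cell line with and without YAP1 and with and without a MEK inhibitor. They are the stathmins STMN1, STMN2, STMN3 and STMN4, the growth cone protein gene GAP43, the neuronal tubulin gene TUBB3, and DCX, MAPT, MAP2 and MAP1B, which encode proteins that bind microtubules. Members were chosen by gene symbol in the calibrated expression table, and all 10 were found among its 57820 genes. The rule uses gene symbols and no expression value, although earlier results of these data were known when the list was drawn up.

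RNA was sequenced from NLF, a human neuroblastoma cell line, in 21 libraries that form 7 groups of 3. The parental line was not given trametinib, and its sample labels name DMSO as the treatment. A control line, sgCON, had received Cas9 and a scrambled guide RNA by lentivirus, and YAPKO1 and YAPKO2 are lines in which YAP1 was targeted with Cas9, each with its own guide. The sgCON, YAPKO1 and YAPKO2 lines were each kept for 72 h in DMSO or in 20 nM trametinib, starting 24 h after plating. Trametinib blocks the MEK kinases, and YAP1 encodes a transcriptional coactivator restrained by the Hippo pathway. The labels do not say whether a knockout line is a clone, so each line stands for itself. Nor do they describe the replicates as separate cultures. A p-value here therefore weighs a difference against the spread of libraries inside groups, estimated for each gene over all 7 groups of 3. That spread may be technical, and it can be wider or narrower than the spread of the groups compared.

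Microtubules are polymers of alpha and beta tubulin that grow and shrink at their ends. Stathmins bind free tubulin and favour shrinkage, while tau (MAPT), MAP2, MAP1B and doublecortin (DCX) bind the polymer and stabilise it. GAP43 sits on the inner face of the growth cone membrane, where it acts on the actin cytoskeleton. Many of these genes are switched on when sympathetic neuroblasts, the cells from which neuroblastoma arises, extend neurites, and several serve as markers of neuronal differentiation in neuroblastoma cultures.

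Levels are FPKM, read fragments per transcript length and library size, scaled between libraries. They are given as mean ± SD with n = 3. Changes are log2 differences of scaled FPKM + 0.5 with the SE from limma, a linear model fitted to 16092 genes, and the threshold for a call was an adjusted p (Benjamini-Hochberg) below 0.05. The number of reads is unknown for FPKM values. Relative depth, estimated from low values, ran from 0.768 to 1.68 times that of a parental library. YAP1 RNA lay between 24.2 and 27.7 in sgCON in DMSO, between 9.06 and 13.2 in YAPKO1 and between 2.69 and 3.17 in YAPKO2. In trametinib the ranges were 22.7 to 24.5, 10.1 to 12.5 and 1.16 to 3.69, so YAP1 RNA was lowered but not absent in the library sets labelled as knockouts. The neuroblast transcription factor genes PHOX2A, HAND2, GATA2, GATA3 and ISL1 were expressed in every group (HAND2 mean 65.6 to 85.8), while TH, which encodes the first enzyme of catecholamine synthesis, had group means of at most 0.367. Summed Schwann cell markers (3 of 6 passed the filter on low values, SOX10 and FOXD3 near 0) stayed between 1.56 and 5.83. The 6 fibroblast markers all passed. Their sum was 836 to 905 in parental cells, 436 to 522 in sgCON in DMSO, 457 to 583 in sgCON in trametinib, 219 to 493 and 184 to 265 in YAPKO1 without and with the drug, and 381 to 615 and 200 to 345 in YAPKO2. The sum hides markers that moved in opposite directions. Against sgCON in DMSO, YAPKO2 had DCN (3.87), COL1A2 (2.06) and PDGFRB (1.27) called higher, and COL1A1 (-1.93) and COL3A1 (-1.94) called lower. DCN changed with trametinib by 1.12 in sgCON and by -1.42 in YAPKO1. The part of these markers in the results was not tested, and in bulk RNA fewer cells of a type and less RNA per cell cannot be told apart.

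Some libraries stood apart from the others of their group in how strongly GC-rich transcripts were represented. This GC trend was taken as the difference (log2) between 2 medians, that of genes whose transcripts hold 57.4% GC or more and that of genes at 43.8% or less. Groups differed in the GC trend too, with -0.60 to -0.55 in parental cells, -0.48 to -0.37 in untreated and -0.27 to -0.12 in treated sgCON. It ran from -0.40 to 0.67 and -0.07 to 0.51 in untreated and treated YAPKO1, and from 0.08 to 0.59 and -0.25 to 1.32 in YAPKO2. Its extremes were -0.60 (parental replicate 1) and 1.32 (replicate 2 of treated YAPKO2). Besides the latter, the libraries apart from their group were replicate 3 of untreated YAPKO1 (0.67), replicate 2 of untreated YAPKO2 (0.59), replicate 2 of treated YAPKO1 (-0.07) and replicate 3 of treated YAPKO2 (-0.25). Where leaving these 5 libraries out together gained or lost a call of a member, both values are given. The 5 were picked from these same data for their GC trend, which several members follow inside groups. Leaving them out cuts away spread inside groups in such members, so a call gained this way is no separate support. The YAPKO2 trametinib group then rests on 1 library, which the model assumes to vary like the other groups.

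**Figure D1:**
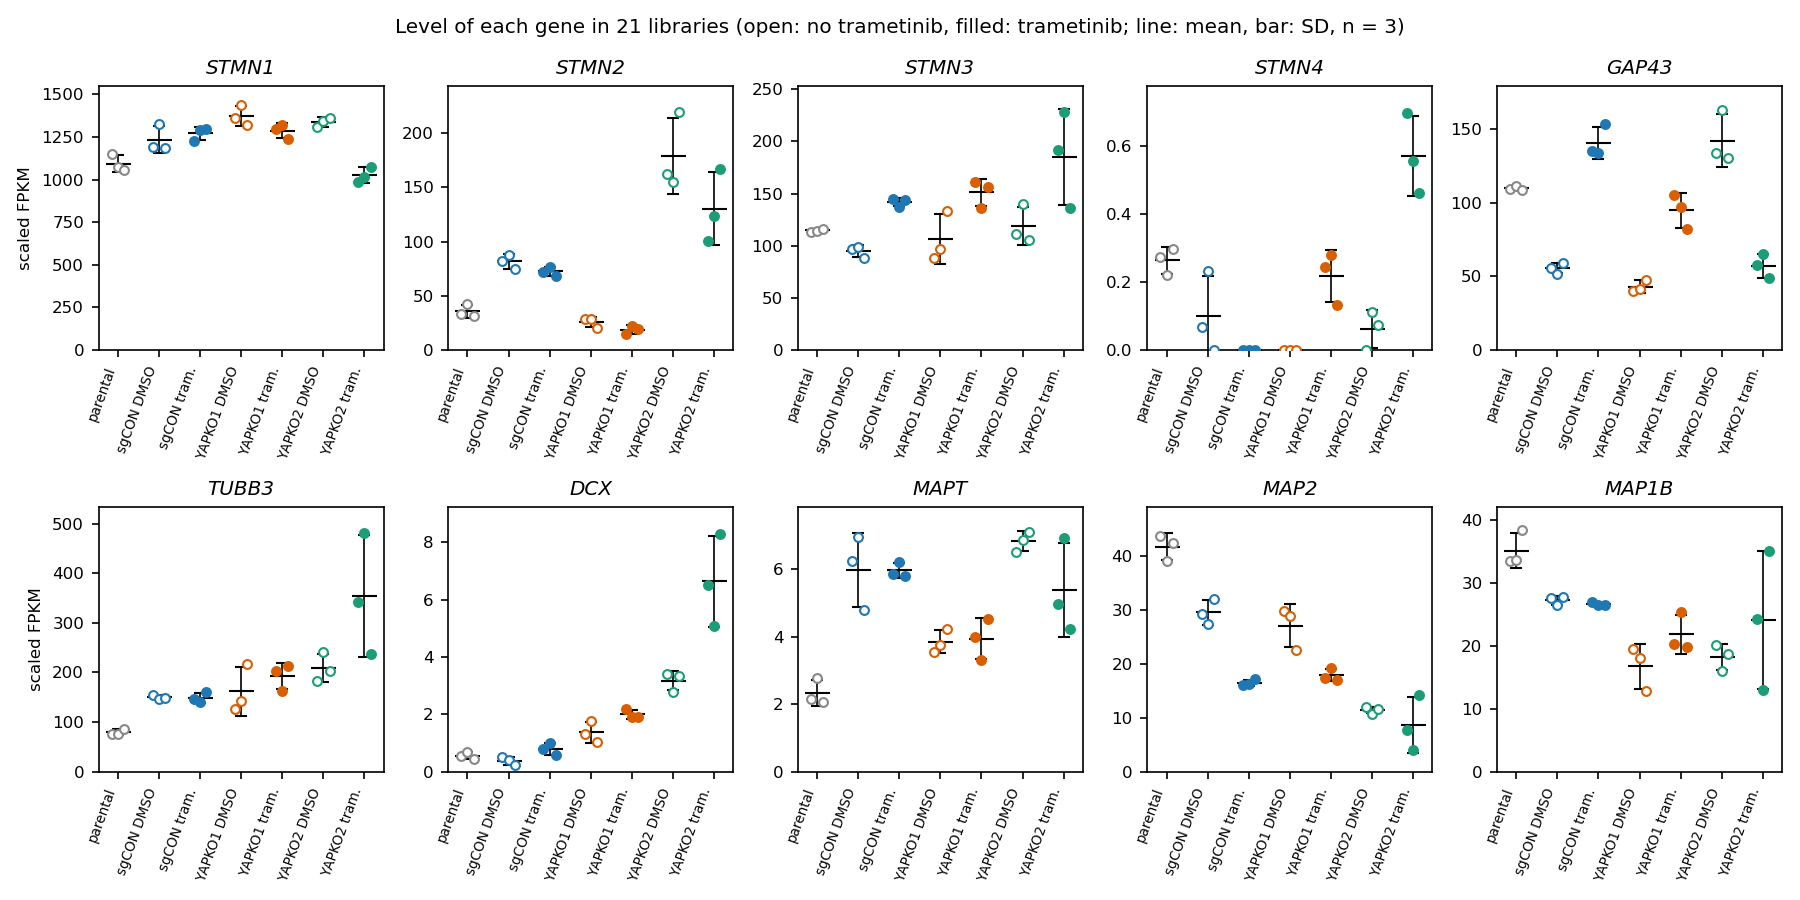
Scaled FPKM (vertical axis, linear, from 0) of each of the 10 genes in the 7 groups along the horizontal axis; each point is a library, the line is the mean and the bar the SD of 3. GAP43 is high in sgCON with trametinib and in YAPKO2 without it, STMN2 is lowest in YAPKO1 and highest in YAPKO2, DCX climbs from sgCON to YAPKO2, and STMN4 stays below 1 in every library.

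The filter kept 9 of the 10 genes. STMN4 was below an FPKM of 1 in all 21 libraries, and DCX reached 1 in 12 libraries, all of them from knockout lines, so DCX was tested because of the groups in which it is high. Trametinib against DMSO raised 2 members in sgCON (2.28% of the tested genes were called higher and 2.94% lower), 1 in YAPKO1 (3.97% and 3.88%) and 3 in YAPKO2, where 2 others fell (8.59% and 11.5%). Against sgCON in DMSO, YAPKO1 had 1 member higher and 2 lower, beside 6.18% and 5.81% of the tested genes. YAPKO2 had 3 higher and 1 lower, beside 14.1% and 13.1%. In trametinib the counts were 1 higher and 3 lower for YAPKO1 (7.81% and 7.18%) and 3 higher and 3 lower for YAPKO2 (17.7% and 18.6%). The member higher in YAPKO1 was DCX in both conditions, and DCX was also among those higher in YAPKO2. The 2 knockout comparisons of a condition share their sgCON libraries, and a trametinib comparison shares libraries with the knockout comparisons of its line.

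GAP43 (ENSG00000172020, chromosome 3) encodes the major growth-associated protein of the growth cone, a substrate of protein kinase C. Its RNA responded to trametinib in every line, but not in the same direction. The sgCON libraries held 55.8, 52.0 and 59.3 in DMSO and 135.2, 134.1 and 153.6 in trametinib. YAPKO1 held 40.3, 41.3 and 47.9 in DMSO and 105.7, 97.1 and 82.2 in trametinib. In both lines every treated library lay above every untreated one, and YAPKO1 reached a lower level than sgCON under the drug. YAPKO2 started from 133.7, 163.1 and 130.3 in DMSO and had 57.8, 65.3 and 48.9 in trametinib. Here every treated library lay below every untreated one, and untreated YAPKO2 overlapped with treated sgCON, as treated YAPKO2 did with untreated sgCON.

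The log2 change of GAP43 with trametinib was 1.33 ± 0.12 in sgCON (adjusted p = 1.73e-06), 1.13 ± 0.12 in YAPKO1 (adjusted p = 1.12e-05) and -1.31 ± 0.12 in YAPKO2 (adjusted p = 1.01e-06). The difference of the YAPKO2 response from that of sgCON was -2.64 ± 0.17 (adjusted p = 2.49e-07), a comparison in which 2 members and 4.83% of tested genes were called in either direction. Against the YAPKO1 response it was -2.43 ± 0.17 (adjusted p = 9.15e-07), where 0.808% were called and GAP43 was the 1 member called. The YAPKO1 response differed from that of sgCON by -0.21 ± 0.17, with a 95% interval from -0.56 to 0.15 (adjusted p = 0.939). In that comparison 0 of 9 members were called by limma, 0 had an unadjusted p under 0.05, and 0.249% of the tested genes were called.

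Between lines, GAP43 was higher in YAPKO2 than in sgCON in DMSO by 1.34 ± 0.12 (adjusted p = 3.05e-07) and lower in trametinib, with a change of -1.30 ± 0.12 (adjusted p = 3.40e-07). YAPKO1 was below sgCON in trametinib (-0.57 ± 0.12, adjusted p = 0.00379). In DMSO its value was -0.37 ± 0.12 without passing the test (adjusted p = 0.0573), although the libraries did not overlap. Correction for GC content moved this last value to -0.39 (adjusted p = 0.0148), and without the 5 libraries apart in GC trend it was -0.44 (adjusted p = 0.00644). Against each other, YAPKO2 exceeded YAPKO1 by 1.71 ± 0.12 in DMSO (adjusted p = 4.51e-08) and lay below it in trametinib (-0.73 ± 0.12, adjusted p = 4.94e-04). In a fit of the 2 groups compared, the value of -0.73 no longer passed (adjusted p = 0.0863).

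GAP43 also differed between the untreated lines without a YAP1 guide. Parental libraries held 109.4, 111.3 and 109.0, above all 3 of sgCON in DMSO. The change from parental to sgCON was -0.98 ± 0.12 (adjusted p = 3.12e-05). In this comparison 4 members and 15.9% of the tested genes were called in either direction.

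Because GAP43 carried the largest difference in drug response among the members, the 250 bases before its annotated start are shown (RefSeq, GRCh38.p14, chr3:115623260-115623509, plus strand, 5′ to 3′). Capitals mark the match to CANNTG, the E-box to which basic helix-loop-helix factors bind, which begins 30 bases before the start.
GAP43: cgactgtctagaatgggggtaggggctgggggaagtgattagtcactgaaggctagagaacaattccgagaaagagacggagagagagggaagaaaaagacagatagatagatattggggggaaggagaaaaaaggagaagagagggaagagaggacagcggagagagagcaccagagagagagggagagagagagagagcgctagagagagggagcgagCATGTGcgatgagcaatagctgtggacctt
CANNTG was found in 61.8% of 35116 promoter windows of this length, searched on both strands, so a match is common. Of the members, 7 matched the promoter table, while STMN2, STMN4 and MAPT did not. GGAATG, the core bound by the TEAD partners of YAP1, was in 0 of the 7 windows and in 11.9% of all windows. The 9 letters ACCGGAAGT, bound by ETS factors, were in 0 of the 7 and in 0.814% of all. CACGTG, a form of CANNTG, was found 2 times in the STMN1 window and in 6.34% of all windows. Binding to any of these matches was not tested.

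**Figure D2:**
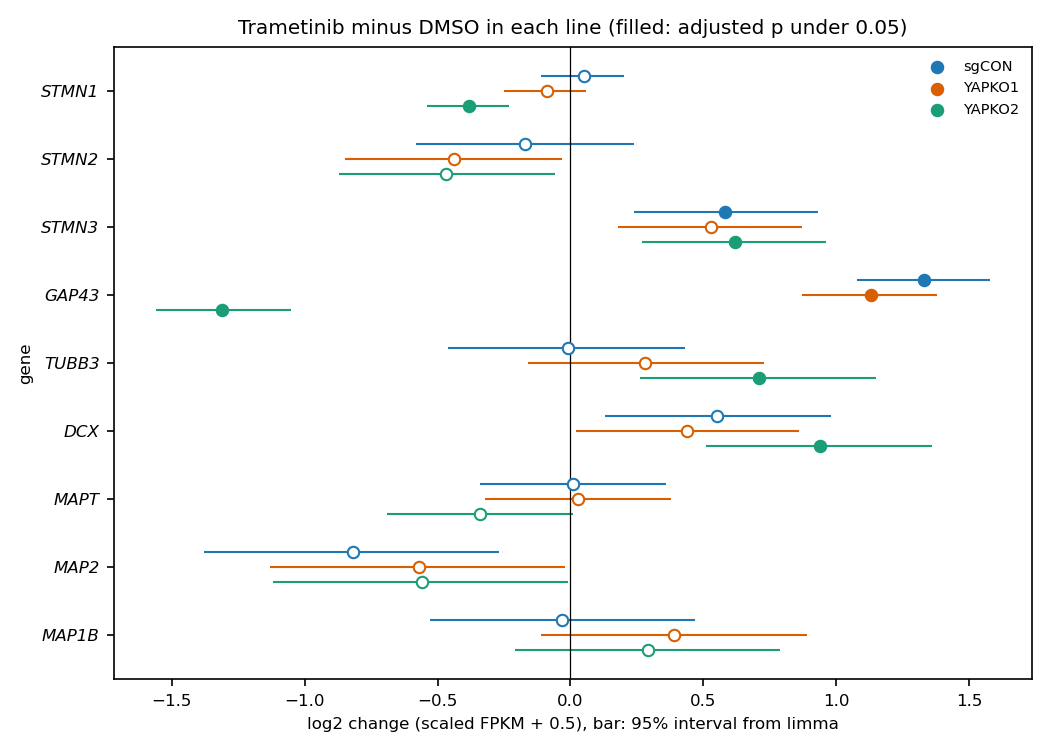
Log2 change with trametinib (horizontal axis, scaled FPKM + 0.5) of the 9 tested genes in sgCON, YAPKO1 and YAPKO2; points are estimates, bars 95% intervals from limma, and filled points have an adjusted p under 0.05. GAP43 lies at 1.33 and 1.13 in sgCON and YAPKO1 and at -1.31 in YAPKO2, while STMN3 lies between 0.53 and 0.62 in all 3 lines.

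STMN2 (ENSG00000104435, chromosome 8) encodes SCG10, the stathmin of growing axons. The 2 knockout lines differed from sgCON in opposite directions. Untreated sgCON libraries held 81.7, 88.1 and 75.1, untreated YAPKO1 28.3, 28.3 and 20.4, and untreated YAPKO2 161.9, 155.0 and 219.4. None of these ranges overlapped. In trametinib the values were 72.1, 76.8 and 68.7 in sgCON, 14.7, 22.5 and 19.5 in YAPKO1, and 100.9, 123.5 and 167.0 in YAPKO2. The order of the 3 lines was the same in both conditions.

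Against sgCON in DMSO the change of STMN2 was -1.66 ± 0.19 in YAPKO1 (adjusted p = 1.43e-05) and 1.11 ± 0.19 in YAPKO2 (adjusted p = 4.49e-04). In trametinib it was -1.93 ± 0.19 (adjusted p = 2.40e-06) and 0.81 ± 0.19 (adjusted p = 0.00351). The last value fell to 0.47 and no longer passed (adjusted p = 0.0671) without the 5 libraries apart in GC trend. YAPKO2 exceeded YAPKO1 by 2.77 ± 0.19 in DMSO (adjusted p = 4.11e-08), where 5 members and 6.97% of tested genes were called in either direction, and by 2.75 ± 0.19 in trametinib (adjusted p = 3.27e-08), where 6 members and 14.2% were called.

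Trametinib itself gave no called change of STMN2. In sgCON the value was -0.17 ± 0.19 (adjusted p = 0.73), in YAPKO1 -0.44 ± 0.19 (adjusted p = 0.199) and in YAPKO2 -0.47 ± 0.19 (adjusted p = 0.102). Without the 5 libraries apart in GC trend, the YAPKO1 and YAPKO2 values became -0.73 and -0.90 and passed the test (adjusted p = 0.00529 and 0.00702). Parental libraries held 33.7, 42.2 and 31.2, all below those of sgCON in DMSO, and the change from parental to sgCON was 1.19 ± 0.19 (adjusted p = 4.02e-04).

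STMN1 (ENSG00000117632, chromosome 1), the stathmin of proliferating cells, was the most abundant member, between 987.3 and 1439. It ranked 137 by mean level among the tested genes and gave 74.2% to 92.1% of the summed stathmin FPKM of a library. It fell in YAPKO2 with trametinib, from 1307, 1344 and 1361 to 987.3, 1014 and 1077. The change was -0.38 ± 0.07 (adjusted p = 0.00137), against 0.05 ± 0.07 in sgCON (adjusted p = 0.822) and -0.09 ± 0.07 in YAPKO1 (adjusted p = 0.525). The YAPKO2 response differed from that of sgCON by -0.43 ± 0.10 (adjusted p = 0.0248). Its difference from the YAPKO1 response, -0.29 ± 0.10, did not pass (adjusted p = 0.34). Treated YAPKO2 was lower in STMN1 than treated sgCON (-0.31 ± 0.07, adjusted p = 0.00358) and treated YAPKO1 (-0.33 ± 0.07, adjusted p = 0.00605). In fits of only the groups compared these missed the threshold (adjusted p = 0.101 and 0.213), and under quantile normalization the value against treated YAPKO1 was -0.21 and missed it too (adjusted p = 0.264).

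The sum of 10 cycling genes was also lower in treated than in untreated YAPKO2, and likewise in YAPKO1, where STMN1 was not called. It was 1063 to 1101 in untreated and 542 to 570 in treated YAPKO2, 1068 to 1142 and 1086 to 1154 in sgCON, and 1023 to 1050 and 767 to 816 in YAPKO1. All 10 were called lower with trametinib in YAPKO2, 3 in YAPKO1 and 0 in sgCON (limma; 1 of the 10 had an unadjusted p under 0.05 in sgCON). Their part in the STMN1 values was not tested. The STMN1 fall is also small enough to depend on scaling. Under quantile normalization the YAPKO2 change was -0.14 (adjusted p = 0.444) and the response difference -0.10 (adjusted p = 0.84), and with only the groups compared they were -0.38 (adjusted p = 0.123) and -0.43 (adjusted p = 0.0931). On the calibrated table without further scaling the response difference was -0.45 (adjusted p = 0.07). The response difference also lost its call without any 1 of 7 libraries. These were sgCON DMSO replicate 1 or 3 (-0.40 each), sgCON trametinib replicate 2 or 3 (-0.42 and -0.41), YAPKO2 DMSO replicate 2 or 3 (-0.42 and -0.41), and YAPKO2 trametinib replicate 1 (-0.40), with adjusted p from 0.057 to 0.0723.

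STMN3 (ENSG00000197457, chromosome 20), which encodes the neuronal stathmin SCLIP, was higher with trametinib in the means of all 3 lines. In sgCON it went from 97.2, 98.4 and 88.1 to 144.4, 137.3 and 143.9. YAPKO1 had 88.1, 97.3 and 133.4 without the drug and 160.7, 136.6 and 156.3 with it, so that in both lines treated and untreated libraries did not overlap. In YAPKO2, values of 111.4, 139.8 and 105.6 without and 191.5, 227.8 and 136.1 with trametinib overlapped. The changes were 0.58 ± 0.16 (adjusted p = 0.0475), 0.53 ± 0.16 (adjusted p = 0.0594) and 0.62 ± 0.16 (adjusted p = 0.0133).

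These STMN3 calls lie close to the threshold. The sgCON call was lost without any 1 of its 6 libraries (0.53 to 0.61, adjusted p from 0.104 to 0.161). The YAPKO2 call was lost without YAPKO2 DMSO replicate 1 (0.57, adjusted p = 0.05) or 3 (0.54, 0.0646), and without YAPKO2 trametinib replicate 1 (0.57, 0.0505) or 2 (0.45, 0.0678). Without the filter on low values neither call held (adjusted p = 0.166 in sgCON and 0.0542 in YAPKO2), nor did that of YAPKO2 with only its groups in the fit (adjusted p = 0.175). After correction for GC content the change was 0.47 in sgCON (adjusted p = 7.43e-05) and 0.40 in YAPKO1 (adjusted p = 2.47e-04), both past the threshold, and without the 5 libraries apart in GC trend the YAPKO1 change was 0.77 (adjusted p = 1.12e-05). No difference between the responses of the lines was called, with values against sgCON of -0.06 (95% interval -0.55 to 0.43) in YAPKO1 and 0.03 (-0.46 to 0.52) in YAPKO2. With all libraries in the fit, no knockout comparison called STMN3. Without the 5 libraries YAPKO2 was called above sgCON in STMN3, by 0.20 in DMSO and 0.43 in trametinib (0.32 and 0.35 with all libraries). It was also called above YAPKO1, by 0.23 and 0.27 (0.17 and 0.26 with all libraries).

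STMN4 (ENSG00000015592, chromosome 8) encodes the brain stathmin RB3. It was listed at 0 in all 3 libraries of sgCON in trametinib and of YAPKO1 in DMSO. The highest values were 0.697, 0.555 and 0.462 in YAPKO2 with trametinib. At such levels no change was computed.

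**Figure D3:**
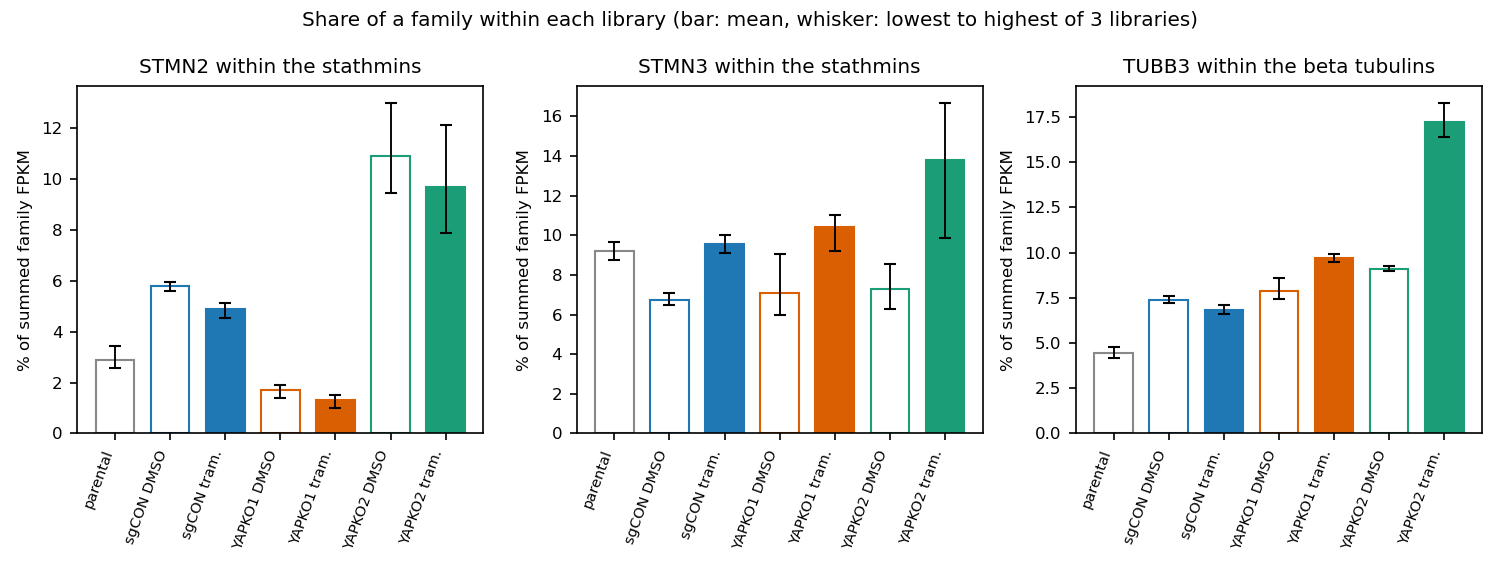
Share of the summed FPKM of its gene family (vertical axis, percent, from 0) taken by STMN2 and STMN3 among the 4 stathmins and by TUBB3 among 7 beta tubulin genes; bars are means of 3 libraries and whiskers run from the lowest to the highest. TUBB3 stands at 16.4% to 18.3% in treated YAPKO2 and at 4.17% to 9.9% in all other groups.

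As a share of stathmin FPKM, STMN2 kept the order of its level among the 3 untreated lines. It took 5.58% to 5.95% in untreated sgCON, 1.38% to 1.92% in untreated YAPKO1 and 9.46% to 13.0% in untreated YAPKO2. STMN3 took 6.5% to 7.09% in untreated and 9.13% to 10.0% in treated sgCON. FPKM is a level per length, which allows such shares, though a share of 1 stathmin also moves when another does.

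TUBB3 (ENSG00000258947, chromosome 16) encodes class III beta tubulin, a marker of neurons. Its mean was highest in YAPKO2 with trametinib (353.7 ± 123), the group that also had its widest spread. Untreated sgCON held 155.3, 147.3 and 147.7, and treated sgCON 146.3, 140.9 and 160.1. The 2 sets overlapped. YAPKO1 had 125.6, 142.8 and 217.9 in DMSO and 202.8, 162.6 and 213.5 in trametinib. YAPKO2 had 183.3, 240.5 and 203.3 in DMSO and 342.0, 482.0 and 237.0 in trametinib. In both knockout lines treated and untreated libraries overlapped.

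The change with trametinib was -0.01 ± 0.21 in sgCON (adjusted p = 0.991), 0.28 ± 0.21 in YAPKO1 (adjusted p = 0.493) and 0.71 ± 0.21 in YAPKO2 (adjusted p = 0.0248). The YAPKO2 call was lost without YAPKO2 DMSO replicate 1 (0.62, adjusted p = 0.0958) or 3 (0.69, 0.0706) and without YAPKO2 trametinib replicate 1 (0.70, 0.0642) or 2 (0.45, 0.127). It was also lost with only these groups in the fit (0.71, adjusted p = 0.198) and without the filter on low values (0.71, adjusted p = 0.108). The YAPKO2 response was not called different from that of sgCON (0.72 ± 0.30, adjusted p = 0.227). Corrected for GC content it was 0.66 and passed (adjusted p = 0.00357), and without the 5 libraries apart in GC trend it was 0.83 (adjusted p = 0.00249). That last setting also called the YAPKO1 change, at 0.63, and its difference from the sgCON response, at 0.64 (0.29 with all libraries).

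Against sgCON in trametinib, TUBB3 was higher in YAPKO2 by 1.19 ± 0.21 (adjusted p = 3.42e-04), with no overlap of libraries and a call under each alternative run. In DMSO the value was 0.47 ± 0.21 (adjusted p = 0.108), and 0.36 with a call (adjusted p = 0.00385) without the 5 libraries. YAPKO1 gave 0.07 in DMSO and 0.36 in trametinib (adjusted p = 0.862 and 0.263), and the latter was 0.48 with a call (adjusted p = 6.00e-04) without the 5 libraries. These left out, YAPKO2 was also called above YAPKO1 in DMSO (0.53, and 0.40 with all libraries). With all libraries YAPKO2 exceeded YAPKO1 in trametinib by 0.82 ± 0.21 (adjusted p = 0.0135), a call lost without YAPKO1 trametinib replicate 2 (0.70, adjusted p = 0.0718) or YAPKO2 trametinib replicate 2 (0.57, 0.0745), with only these groups in the fit (adjusted p = 0.206), and without the filter (adjusted p = 0.0625). From parental cells (75.4, 76.6 and 86.7) to sgCON it rose by 0.91 ± 0.21 (adjusted p = 0.00641). Correction for GC content lowered the values of YAPKO2 against sgCON to 0.84 in trametinib (adjusted p = 1.95e-06) and 0.18 in DMSO (adjusted p = 0.16). With only the groups compared in the fit, that DMSO value was 0.47 and was called (adjusted p = 0.0158).

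Within the beta tubulins the TUBB3 values were tighter than the levels. TUBB3 took 16.4% to 18.3% of the summed FPKM of 7 beta tubulin genes in treated YAPKO2, 8.99% to 9.26% in untreated YAPKO2, and 7.24% to 7.6% and 6.6% to 7.12% in untreated and treated sgCON. In YAPKO1 the share was 7.41% to 8.61% without and 9.46% to 9.9% with the drug, and in parental cells 4.17% to 4.77%. The share is a description with no test. Beta tubulin genes are close copies of each other, so reads that fit several of them make single values uncertain, and the protein-coding gene AC092143.1 that overlaps TUBB3 reached at most 0.267% of its FPKM.

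The TUBB3 promoter window was the 1 member window that held TGANTCA, the site to which AP-1 factors bind, found in 6.57% of all windows. It is shown because the TUBB3 mean was highest under MEK inhibition in YAPKO2 (RefSeq, GRCh38.p14, chr16:89921675-89921924, plus strand, 5′ to 3′). Capitals mark the match, which begins 21 bases before the start. Binding to this match, and its part in the TUBB3 values, were not tested.
TUBB3: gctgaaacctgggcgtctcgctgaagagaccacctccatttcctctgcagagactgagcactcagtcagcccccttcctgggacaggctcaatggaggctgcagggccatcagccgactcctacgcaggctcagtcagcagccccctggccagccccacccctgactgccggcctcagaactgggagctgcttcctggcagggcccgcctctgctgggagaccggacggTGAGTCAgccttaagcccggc

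DCX (ENSG00000077279, X chromosome) encodes doublecortin, a microtubule-associated protein of migrating young neurons. Its RNA was scarce, and it was higher in both knockout lines than in sgCON. Untreated sgCON libraries held 0.511, 0.393 and 0.229, untreated YAPKO1 1.31, 1.75 and 1.03, and untreated YAPKO2 3.42, 2.78 and 3.33. In trametinib the values were 0.801, 0.989 and 0.576 in sgCON, 2.18, 1.92 and 1.89 in YAPKO1, and 6.53, 5.10 and 8.29 in YAPKO2. From treated sgCON through untreated and treated YAPKO1 to untreated and treated YAPKO2, no group overlapped with the next. Parental libraries (0.557, 0.683 and 0.426) overlapped with both sgCON groups.

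Against sgCON in DMSO the change of DCX was 1.08 ± 0.20 in YAPKO1 (adjusted p = 0.00157) and 2.08 ± 0.20 in YAPKO2 (adjusted p = 7.54e-07). In trametinib it was 0.97 ± 0.20 (adjusted p = 0.00336) and 2.46 ± 0.20 (adjusted p = 6.28e-08). The pseudocount of 0.5 exceeds or nears the sgCON values, so these figures understate the ratio. DCX passed the filter only through knockout libraries, so these p-values belong to a gene admitted by the groups in which it is high. YAPKO2 exceeded YAPKO1 by 0.99 ± 0.20 in DMSO (adjusted p = 0.00406) and 1.49 ± 0.20 in trametinib (adjusted p = 6.57e-05). Fits with only the groups compared gave adjusted p of 0.0533 for YAPKO1 against sgCON in DMSO and 0.0714 for YAPKO2 against YAPKO1 in DMSO.

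With trametinib DCX changed by 0.55 ± 0.20 in sgCON (adjusted p = 0.136), 0.44 ± 0.20 in YAPKO1 (adjusted p = 0.216) and 0.94 ± 0.20 in YAPKO2 (adjusted p = 0.00296). In all 3 lines the treated libraries lay above the untreated ones without overlap. The sgCON value passed after correction for GC content (0.60, adjusted p = 0.0324), and the YAPKO2 value did not pass with only its groups in the fit (adjusted p = 0.0684). Differences between the responses were not called, at 0.38 ± 0.28 for YAPKO2 against sgCON (95% interval -0.21 to 0.98).

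**Figure D4:**
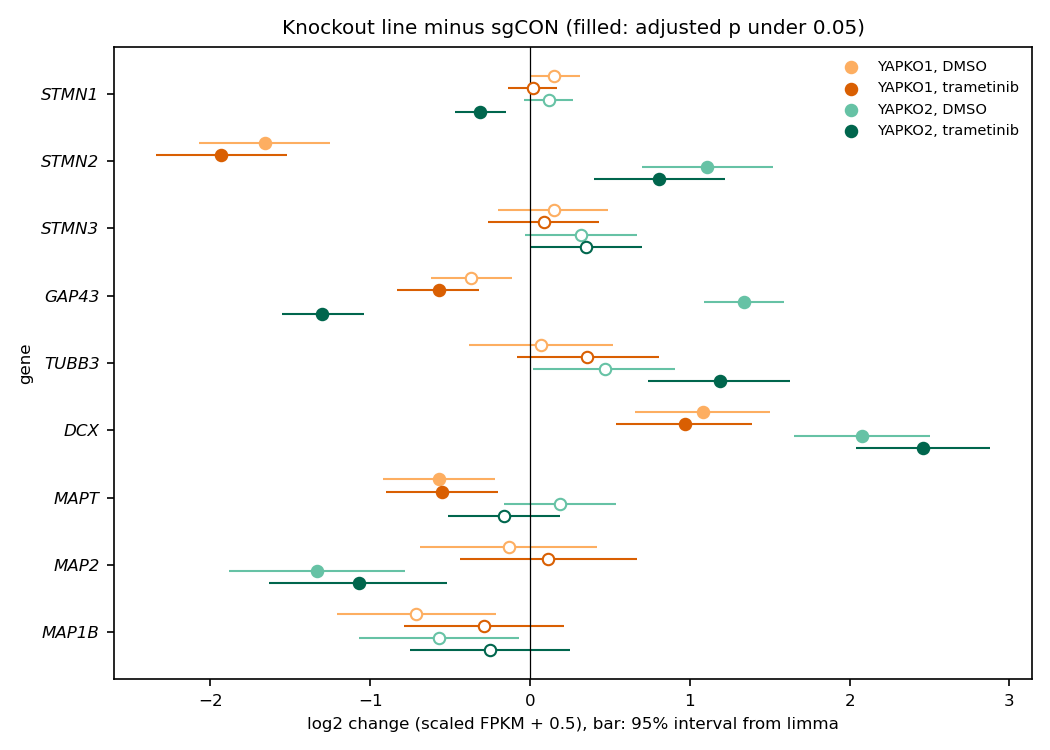
Log2 change of each knockout line against sgCON (horizontal axis, scaled FPKM + 0.5) in DMSO (light) and trametinib (dark) for the 9 tested genes; points are estimates, bars 95% intervals from limma, and filled points have an adjusted p under 0.05. DCX lies above 0 in all 4 comparisons (0.97 to 2.46), STMN2 is below 0 in YAPKO1 and above 0 in YAPKO2, and GAP43 in YAPKO2 goes from 1.34 in DMSO to -1.30 in trametinib.

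MAPT (ENSG00000186868, chromosome 17), the gene of the axonal protein tau, was lower in YAPKO1 than in sgCON. The sgCON libraries held 6.24, 6.95 and 4.79 in DMSO, and those of YAPKO1 3.56, 3.76 and 4.22. In trametinib the values were 5.87, 6.23 and 5.81 in sgCON and 3.99, 3.32 and 4.53 in YAPKO1. All YAPKO1 libraries lay below all sgCON libraries. The change was -0.57 ± 0.17 in DMSO (adjusted p = 0.0327) and -0.55 ± 0.17 in trametinib (adjusted p = 0.033). Both calls are fragile. In DMSO the call was lost without sgCON DMSO replicate 1 (-0.53, adjusted p = 0.104) or 2 (-0.46, 0.147) and without YAPKO1 DMSO replicate 1 (-0.52, 0.0786) or 2 (-0.55, 0.0802). In trametinib it was lost without sgCON trametinib replicate 1 (-0.56, adjusted p = 0.0769), 2 (-0.52, 0.103) or 3 (-0.57, 0.0701) and without YAPKO1 trametinib replicate 1 (-0.56, 0.0762) or 2 (-0.45, 0.113). Without the filter on low values (adjusted p = 0.0852 in DMSO and 0.0861 in trametinib) and under quantile normalization (-0.47 and -0.50, adjusted p = 0.127 and 0.0951) neither MAPT call held. The DMSO call was also lost with only these groups in the fit (adjusted p = 0.124) and on the calibrated table without further scaling (-0.54, adjusted p = 0.056).

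YAPKO2 libraries held 6.51, 6.88 and 7.11 of MAPT in DMSO and 4.98, 6.94 and 4.24 in trametinib, and were not called different from sgCON (0.19 and -0.16, adjusted p = 0.412 and 0.469). Corrected for GC content, treated YAPKO2 was lower than treated sgCON (-0.45, adjusted p = 0.012), and the trametinib change in YAPKO2 went from -0.34 (adjusted p = 0.164) to -0.46 (adjusted p = 0.0148). YAPKO2 exceeded YAPKO1 by 0.76 ± 0.17 in DMSO (adjusted p = 0.00756, and 0.0525 with only these groups in the fit). Parental cells had the lowest values (2.16, 2.77 and 2.06), and sgCON exceeded them by 1.19 ± 0.17 (adjusted p = 9.52e-05). Trametinib in sgCON and YAPKO1 gave 0.01 and 0.03. The gene STH, which lies inside MAPT, reached up to 10.8% of its FPKM in a library, and no other overlapping gene passed 3.15% of its member.

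MAP2 (ENSG00000078018, chromosome 2), whose protein is characteristic of dendrites, was lower in YAPKO2 than in sgCON in both conditions. Untreated libraries held 29.2, 27.4 and 32.1 in sgCON, 29.8, 28.97 and 22.5 in YAPKO1, and 11.9, 10.8 and 11.7 in YAPKO2. Here sgCON and YAPKO1 overlapped while YAPKO2 lay below both. The treated libraries held 16.1, 16.3 and 17.2 in sgCON, 17.4, 19.3 and 17.1 in YAPKO1, and 7.63, 3.91 and 14.3 in YAPKO2.

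The change of YAPKO2 from sgCON was -1.33 ± 0.26 in DMSO (adjusted p = 0.00133) and -1.07 ± 0.26 in trametinib (adjusted p = 0.00438). Against YAPKO1 it was -1.20 ± 0.26 (adjusted p = 0.00773) and -1.19 ± 0.26 (adjusted p = 0.00518). With only the groups compared, both trametinib values lost their call (adjusted p = 0.132 and 0.233), in the condition where the YAPKO2 libraries spread from 3.91 to 14.3. For YAPKO1 against sgCON the values were -0.13 and 0.11, with 95% intervals from -0.69 to 0.42 and from -0.44 to 0.67.

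No call was made for MAP2 with trametinib. The change was -0.82 ± 0.26 in sgCON (adjusted p = 0.0876), -0.57 ± 0.26 in YAPKO1 (adjusted p = 0.216) and -0.56 ± 0.26 in YAPKO2 (adjusted p = 0.149). In sgCON and YAPKO1 the treated libraries did not overlap with the untreated ones. The sgCON change was called after correction for GC content (-0.81, adjusted p = 0.0438) and with only its groups in the fit (-0.82 ± 0.07, adjusted p = 0.00287). Without the 5 libraries apart in GC trend, YAPKO1 gave -0.75 (adjusted p = 4.97e-05) and YAPKO2 -0.60 (adjusted p = 0.00123). Parental libraries had the highest values, 43.8, 39.1 and 42.4. The change from parental to sgCON was -0.49 ± 0.26 (adjusted p = 0.238), and it was called with only these groups in the fit (adjusted p = 0.00499).

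MAP1B (ENSG00000131711, chromosome 5), a microtubule-associated protein of growing axons, had no called change in any of the 13 comparisons with all libraries in the fit. Its libraries ran from 33.5 to 38.3 in parental cells, 26.4 to 27.7 in untreated sgCON, 26.4 to 26.9 in treated sgCON, 12.7 to 19.5 in untreated YAPKO1 and 16.0 to 20.1 in untreated YAPKO2. Both untreated knockout lines lay below untreated sgCON without overlap, with -0.71 ± 0.24 for YAPKO1 (adjusted p = 0.0618) and -0.57 ± 0.24 for YAPKO2 (adjusted p = 0.0814). Without the 5 libraries apart in GC trend these shrank to -0.53 and -0.48, yet they were called. So were YAPKO1 against sgCON in trametinib (-0.40, and -0.29 with all libraries) and the trametinib change in YAPKO2 (0.32, and 0.29 with all libraries). Treated YAPKO2 spread from 13.0 to 35.0. Fits of only the groups compared called MAP1B lower in YAPKO2 than in sgCON in DMSO (-0.57, adjusted p = 0.00675). They also called it lower in sgCON than in parental cells (-0.36, adjusted p = 0.00984).

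**Figure D5:**
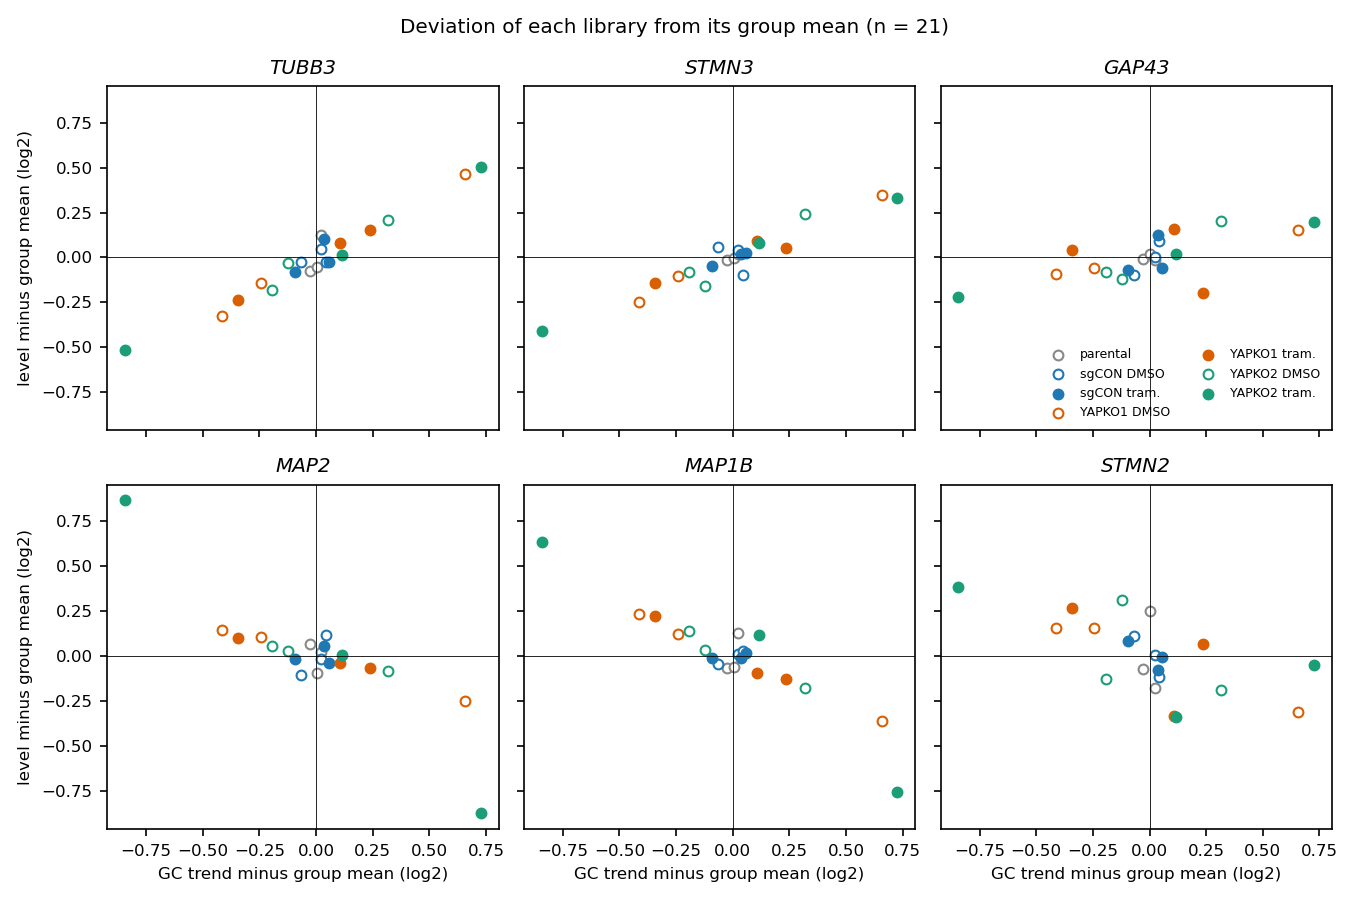
Deviation of each of the 21 libraries from its group mean for 6 of the genes (vertical axis, log2 level) against the deviation in GC trend (horizontal axis, log2); colour marks the line and filling marks trametinib. TUBB3 and STMN3 climb with the GC trend, MAP2 and MAP1B fall with it, and the widest deviations are those of YAPKO2 trametinib replicates 2 and 3.

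The spread of several members inside a group followed the GC trend of the libraries. Within groups, over 21 libraries, Pearson's r with the GC trend was 0.98 for TUBB3, 0.96 for STMN3, 0.68 for GAP43 and 0.65 for MAPT, and it was -0.93 for MAP1B, -0.87 for MAP2, -0.67 for DCX, -0.65 for STMN2 and -0.47 for STMN1. TUBB3 and STMN3 have the most GC-rich transcripts of the members (61.9% and 63.1%), and DCX, STMN1 and STMN2 the least (45.1%, 45.7% and 45.9%). MAP1B (49.8%), GAP43 (48.4%) and MAP2 (46.9%) lie between these, although GAP43 rose with the trend while MAP1B and MAP2 fell. With the differences between groups included, r over the 21 libraries was 0.89 for TUBB3, 0.77 for STMN3 and 0.63 for DCX. It was -0.83 for MAP2 and -0.78 for MAP1B, and between -0.13 and 0.44 for the other members. These are descriptions of libraries that share their processing. All 43 called member results kept their call when each library was corrected for transcript GC content. Their sizes moved in both directions. STMN1 in treated YAPKO2 against treated sgCON went from -0.31 to -0.17, and TUBB3 with trametinib in YAPKO2 from 0.71 to 0.54. MAPT in YAPKO1 against sgCON in DMSO went from -0.57 to -0.72. The correction did not remove the spread of MAP1B and MAP2, however. In treated YAPKO2 the corrected log2 levels were 4.61, 3.62 and 5.20 for MAP1B and 3.11, 2.22 and 3.88 for MAP2.

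Among themselves the members did not move as a block over the 21 libraries. The highest correlations were those of TUBB3 with DCX (0.74), STMN2 with MAPT (0.68) and STMN3 with TUBB3 (0.67), and TUBB3 with MAP2 had -0.90. These values are not corrected for GC content, and TUBB3, STMN3 and MAP2 also followed the GC trend (0.89, 0.77 and -0.83). The part of that trend in these correlations, and in those with genes outside the list, was not tested. Outside the list, 12086 protein-coding genes were searched for the pattern most like that of a member. STMN2 was nearest to OCIAD2 (0.926), GAP43 to HMGN2 (0.861), TUBB3 to PI4K2A (0.979) and DCX to GFRA1 (0.956), which encodes a GDNF receptor. MAPT was nearest to PRRC2A (0.914), MAP2 to STXBP5 (0.968) and MAP1B to DST (0.960), a cytoskeletal linker gene. For DCX the third nearest was MAP6 (0.952), which encodes a protein that makes microtubules resist cold.

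Of 11 other tubulin genes, all tested, trametinib raised 1 and lowered 4 in YAPKO2 and lowered 1 in YAPKO1. In sgCON limma called 0, and 0 had an unadjusted p under 0.05. In YAPKO2 the alpha tubulin TUBA1C rose by 0.80 ± 0.21, while TUBA1B (-0.79 ± 0.19), TUBB4B (-0.75 ± 0.19) and TUBB6 (-0.63 ± 0.13) fell. In DMSO YAPKO2 exceeded sgCON in TUBA1C (1.25), TUBA1A (0.89) and TUBA1B (0.62) and was below it in TUBB2A (-0.73). YAPKO1 was below sgCON in TUBB2A (28.4 ± 7.25 against 56.5 ± 4.18) and TUBB2B (158 ± 39.7 against 234 ± 1.54). Median changes of the list were -0.13, -0.07 and -0.28 for trametinib in sgCON, YAPKO1 and YAPKO2, while over all tested genes the medians of the 13 comparisons lay between -0.02 and 0.01.

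Of 26 genes of microtubule regulators, all tested, trametinib raised 1 and lowered 1 in sgCON, raised 2 and lowered 1 in YAPKO1, and raised 3 and lowered 3 in YAPKO2. MAP6 was raised in each line, by 0.59 ± 0.16 in sgCON (adjusted p = 0.0422), 0.88 ± 0.16 in YAPKO1 (adjusted p = 0.00241) and 1.26 ± 0.16 in YAPKO2 (adjusted p = 3.01e-05). MAPRE2, of the EB family that binds growing microtubule ends, was lowered in sgCON (-0.40) and YAPKO1 (-0.54), and in YAPKO2 by less than the 4 largest changes there. Against sgCON in DMSO, 0 were higher and 5 lower in YAPKO1, among them VASH2 (-0.82), an enzyme that removes the terminal tyrosine of alpha tubulin. YAPKO2 had 6 higher and 6 lower, with MAP6 at 1.67 ± 0.16 and the kinase gene MARK1, whose product phosphorylates MAPs, at -1.12 ± 0.18. MAP6 levels went from 0.249 ± 0.0378 in untreated and 0.627 ± 0.0559 in treated sgCON to 5.2 ± 0.664 in treated YAPKO2. Like DCX, MAP6 was tested because of groups in which it is high, since every parental, sgCON and untreated YAPKO1 library lay below an FPKM of 1. The medians of the list were 0.01, -0.03 and 0.04 for trametinib in sgCON, YAPKO1 and YAPKO2, and -0.13 and 0.09 for YAPKO1 and YAPKO2 against sgCON in DMSO.

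Of 18 growth cone genes other than GAP43, 17 were tested and MARCKS was not analysed here. Trametinib raised 0 and lowered 2 in sgCON, raised 2 and lowered 3 in YAPKO1, and raised 5 and lowered 3 in YAPKO2. NRN1, which encodes the neurite-promoting protein neuritin, fell in all 3 lines, with changes of -1.36 ± 0.21, -1.49 ± 0.21 and -1.15 ± 0.21 (adjusted p = 5.13e-04, 1.52e-04 and 6.85e-04). L1CAM, an adhesion molecule of axons, rose in YAPKO1 (0.74 ± 0.20) and YAPKO2 (0.99 ± 0.20). Its response was higher in YAPKO2 than in sgCON by 1.03 ± 0.28 (adjusted p = 0.0452), while that of DPYSL3 was lower (-0.49 ± 0.13, adjusted p = 0.0407). The response of NCAM1, another adhesion molecule, exceeded that of sgCON by 0.75 ± 0.14 in YAPKO1 (adjusted p = 0.0297) and 0.58 ± 0.14 in YAPKO2 (adjusted p = 0.0213). In DMSO YAPKO1 had 2 of the genes higher and 2 lower than sgCON, led by GPM6B (1.93 ± 0.21), which lay below an FPKM of 1 in every sgCON library, and YAPKO2 had 5 higher and 2 lower, led by L1CAM (1.19 ± 0.20). Medians for trametinib were 0.07, 0.10 and -0.02 in sgCON, YAPKO1 and YAPKO2.

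Among 10 genes of axonal transport, all tested, trametinib lowered 1 in sgCON, raised 1 and lowered 1 in YAPKO1, and raised 2 and lowered 2 in YAPKO2. DYNC1I1, a subunit of the dynein motor, fell in each line, with changes of -1.48 ± 0.18, -1.21 ± 0.18 and -0.84 ± 0.18. The kinesin gene KIF5A rose in YAPKO1 (0.57 ± 0.14) and YAPKO2 (0.74 ± 0.14), and its response in YAPKO2 exceeded that in sgCON by 1.12 ± 0.20 (adjusted p = 0.00275). KIF1A, the kinesin that carries synaptic vesicle precursors, was higher than in sgCON in untreated YAPKO1 (1.07 ± 0.23) and YAPKO2 (1.68 ± 0.23). Median changes with the drug were -0.36 in sgCON and -0.24 in both knockout lines.

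The last list held 7 regulators of the members' RNAs, all tested. ELAVL2, ELAVL3, ELAVL4 and TARDBP encode RNA-binding proteins, of which the ELAVL4 product HuD stabilises GAP43 mRNA and the TARDBP product TDP-43 guards STMN2 splicing. REST encodes a repressor of neuronal genes such as STMN2, and SOX4 and SOX11 encode activators in young neurons. REST was not called in any of the 13 comparisons (group means 6.66 to 11.5), nor were ELAVL2 and SOX11. ELAVL4 rose with trametinib in YAPKO1 (0.96 ± 0.26) and YAPKO2 (1.14 ± 0.26) and was not called in sgCON (-0.04 ± 0.26). GAP43 rose in sgCON and YAPKO1 and fell in YAPKO2. The part of ELAVL4 in the GAP43 values was not tested. SOX4 rose with trametinib in YAPKO1 (0.83 ± 0.07) and YAPKO2 (1.14 ± 0.07). Its response exceeded that of sgCON in YAPKO1 (0.61 ± 0.10, adjusted p = 0.0194) and in YAPKO2 (0.92 ± 0.10, adjusted p = 6.27e-05). ELAVL3 was higher in untreated YAPKO1 (1.01 ± 0.22) and YAPKO2 (2.05 ± 0.22) than in sgCON. TARDBP was lower in treated YAPKO2 than in treated sgCON (-0.43 ± 0.13, adjusted p = 0.0168), with overlap between the libraries.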

How the data were processed

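Stranded total RNA libraries with ribosomal RNA removed were made per the labels' protocols. Reads were processed with STAR 2.4.2 and RSEM 1.3.0 on hg19, per the submitters' processing notes; the use of strand in counting is not given in the sources used here. The deposited files are 2 FPKM tables (57820 genes, 21 samples); the authors' calibrated table equals the other times 1 factor per library (0.927 to 1.07). Parental samples were read from the columns headed DMSO with a replicate number, which no other sample's labels match. The sample labels name 0.01% DMSO, the series text 0.1%.

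A scaling factor per library was the median, over genes, of its ratio to their geometric means. The 16092 genes that reached an FPKM of 1 in 3 or more libraries were tested, and log2(scaled FPKM + 0.5) was fitted with limma 3.58.1 (R 4.3.3, eBayes with trend) over all 21 libraries and 7 groups, with two-sided tests and Benjamini-Hochberg adjustment over all tested genes. The 13 comparisons were trametinib against DMSO in each line, each knockout against sgCON and against the other in both conditions, the differences between the responses, and sgCON against parental cells. A fold change on this scale understates the change of low genes. No counts are known, so no counting interval is given.

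Alternatives were pseudocounts of 0.1 and 1, no filter, the calibrated and uncalibrated tables without scaling, quantile normalization, only the groups compared, a replicate block, a spline on transcript GC content (5 degrees of freedom; GC known for 96.5% of tested genes), each library left out, and 5 libraries left out together. The genes and lists were chosen with earlier results of these data known. All members are named. From each list at most 4 called genes with the largest change per comparison are named, and for each member with group means spanning at least 1 (log2) the genes with the highest Pearson correlation. Promoters are from RefSeq (GRCh38.p14).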

Additional observations from a re-analysis of the deposited data

Results flagged for a closer look

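The response of GAP43 to trametinib differed between lines. It was 1.33 in sgCON and 1.13 in YAPKO1 and -1.31 in YAPKO2 (log2), and the test of the difference gave -2.64 for YAPKO2 minus sgCON and -2.43 for YAPKO2 minus YAPKO1. For STMN1 the YAPKO2 response differed from that of sgCON by -0.43. STMN2 differed from sgCON in opposite directions in the knockout lines, and YAPKO2 minus YAPKO1 was 2.77 in DMSO and 2.75 in trametinib.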

How the results depend on the processing

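Over the 117 member results, 2133 values were computed under alternatives. Of these 2003 kept their side of the threshold, 62 lost a call, 68 gained one, and 0 reversed direction where either value was called. A change of sign between values that were both not called was counted as kept. The counts of called members moved by more than 1.5 times under 41 of 237 alternatives. Without the filter, trametinib called 1 member in sgCON and 3 in YAPKO2. On the calibrated and the uncalibrated table and under quantile normalization it called 2 in YAPKO1, and on the calibrated table the YAPKO2 response differed from that of sgCON in 1. Fits of only the groups compared gave 1 for trametinib in YAPKO2, 1 for YAPKO1 against sgCON in DMSO, 3 and 2 for YAPKO2 against YAPKO1 in DMSO and trametinib, 1 for the YAPKO2 response against that of sgCON, and 7 for sgCON against parental cells. The GC correction, with and without the replicate block, gave 4 for trametinib in sgCON, 2 in YAPKO1 and 5 for YAPKO1 against sgCON in DMSO. Leaving out 5 libraries gave 5 and 8 for trametinib in YAPKO1 and YAPKO2, 5 and 7 for YAPKO1 and YAPKO2 against sgCON in DMSO, and 1 for the YAPKO1 response against that of sgCON. Over all tested genes the same setting called 5321 (1263 with all libraries), 3794 (3231), 2937 (1929), 5927 (4365) and 1504 (40), and also 6017 (2412) for YAPKO1 against sgCON in trametinib, 3023 (1121) for YAPKO2 against YAPKO1 in DMSO and 1325 (777) for the YAPKO2 response against that of sgCON. Leaving out single libraries gave 1 to 1 for trametinib in sgCON, 1 to 2 in YAPKO1, 3 to 7 in YAPKO2, and 1 to 3 for the YAPKO2 response against that of sgCON, beside 483 to 546 (840), 744 to 1614 (1263), 2271 to 4551 (3231) and 509 to 1160 (777) of all tested genes. For YAPKO1 against sgCON they were 1231 to 2132 (1929) in DMSO and 1421 to 2147 (2412) in trametinib, for YAPKO2 against sgCON in DMSO 2575 to 3848 (4365), for YAPKO2 against YAPKO1 in trametinib 1564 to 3967 (2280), for sgCON against parental cells 1696 to 1862 (2552), and for the YAPKO1 response against that of sgCON 12 to 39 (40) and the YAPKO2 response against that of YAPKO1 51 to 173 (130). The cause was not tested. Over all tested genes, fits of only the groups compared called 2392 (840 in the fit of all groups) for trametinib in sgCON, 197 (1263) in YAPKO1 and 693 (3231) in YAPKO2. They called 739 (1929) for YAPKO1 against sgCON in DMSO, 2576 (5842) for YAPKO2 against sgCON in trametinib, 302 (1121) and 286 (2280) for YAPKO2 against YAPKO1 in DMSO and trametinib, and 4684 (2552) for sgCON against parental cells. For the responses they called 9 (40) for YAPKO1 and 443 (777) for YAPKO2 against sgCON, and 3 (130) for YAPKO2 against YAPKO1. With the GC correction the counts of trametinib in sgCON and YAPKO1 were 1605 and 2301, that of YAPKO1 against sgCON in DMSO 3072, that of YAPKO2 against YAPKO1 in DMSO 1872, that of sgCON against parental cells 3981, and those of the responses 159, 1710 and 373.

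Same-numbered libraries did not deviate together (63 pairs, r from -0.55 to 0.36, median -0.01, 4 over 0.1), and 2 of 21 libraries correlated best with their own number. With the replicate block, trametinib called 1 member in sgCON, since STMN3 missed the threshold (0.58, adjusted p = 0.0745), and it changed no other call of a member result. FPKM give no depth, so how far read number limits DCX and STMN4 is not known.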
